A study of Mus musculus with 6 samples.

Results

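The Ifi200 genes, also called the PYHIN family, were followed in RNA sequencing libraries of mouse macrophages grown from bone marrow. The 10 members were the rows of the expression table with the symbols Ifi202b, Ifi203, Ifi204, Ifi205, Ifi206, Ifi207, Ifi209, Ifi211, Ifi213 and Ifi214, out of 16836 genes. Of the 10, 9 reached 1 CPM (read counts scaled to a common library size) in at least 3 libraries and were tested, and Ifi213 did not. There were 3 libraries from Ube3a knockout mice (KO, genotype given as UBE3A KO or Ube3a-/-) and 3 from wild-type littermates (WT), with no treatment, age, strain or sex in the labels. The knockout allele is not described there. Nothing says that the libraries of a genotype stem from different animals, and the p-values therefore speak only of the spread among these 6, part of which may be technical.

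PYHIN proteins pair an N-terminal pyrin domain with a HIN domain that binds DNA, and some members lack one of the domains. Several act as sensors of DNA in the cytosol or nucleus. Their transcription is raised by type I interferon. In the mouse the genes form a tandem cluster on chromosome 1 that varies between inbred strains, and Ifi202b in particular is known to differ widely in level between strains.

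Over the 6 libraries the Ifi200 genes were high or low together, while the means of KO and WT were close. KO replicate 1 exceeded KO replicate 2 by 1.67-fold for Ifi207 and by 20.5-fold for Ifi206. KO replicate 1 and WT replicate 2 held the highest levels of each of the 10 genes, followed in each by KO replicate 3 and then WT replicate 3, and KO replicate 2 or WT replicate 1 was lowest. No member was called changed between genotypes, and the mean level of the antiviral interferon-stimulated genes followed the same order of libraries.

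Library depth was 25454862 to 35517269 reads on the genes of the table. A single read equalled between 0.0277 and 0.0400 CPM. The targeted gene Ube3a stood at 69.3 ± 7.94 CPM (SD, n = 3) in KO and at 192.8 ± 14.8 CPM (SD, n = 3) in WT, with no overlap (log2 fold change -1.47, limma adjusted p = 0.00444). All 15 core macrophage markers had a row, and their summed level ran from 19470 CPM in KO replicate 3 to 22490 CPM in WT replicate 2. Lyz2 alone held 8859 to 11216 CPM of it, and some single markers moved more. KO replicate 1 and WT replicate 2 were highest in 6 of the 15, against 12.8% of all tested genes. Adgre1 was 1 of them, with 923.5, 781.9 and 786.7 CPM in KO and 620.1, 1018.5 and 680.9 CPM in WT. Cx3cr1 was lowest in that pair, with 186.9, 257.8 and 236.1 CPM in KO and 397.35, 159.1 and 371.2 CPM in WT. Libraries of replicate 2 stand apart in both genotypes: they held 28 (KO) and 14 (WT) reads of Xist, an RNA of the inactive X chromosome in female cells, against 30161 to 42232 in the other 4. As these 2 libraries lay near opposite ends of the Ifi200 range, results are given with and without them.

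Most promoters of the cluster share a short element. The letters GAAA, any 2 bases and again GAAA, the core of the interferon-stimulated response element, were searched on both strands in the 250 bases before each RefSeq transcript start (GRCm38.p6, from the C57BL/6J reference). They were found for 7 of the 9 members that had a window, against 3.46% of 27025 genes (2.98% of all 32851 windows, and 7 of the 10 windows of members) and 10 of 23 genes in the list of antiviral interferon-stimulated genes. The stretches below show it, all read on the gene's own strand, 5′ to 3′, with the letters of the match in capitals. Ifi209 had no match but a pair of stretches that each differ from the motif by 1 base, G1T and G7C, with positions counted from 1 at the motif's 5′ end. The capitals mark the G1T stretch, which lies 79 bases before the start as in Ifi214, and the G7C stretch, 177 bases before it, is not shown.

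Ifi206 (chr1:173491334-173491373, minus strand): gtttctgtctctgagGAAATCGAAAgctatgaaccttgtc
Ifi213 (chr1:173599321-173599360, minus strand): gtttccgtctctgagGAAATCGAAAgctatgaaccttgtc
Ifi214 (chr1:173536012-173536051, minus strand): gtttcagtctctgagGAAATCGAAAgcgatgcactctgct
Ifi209 (chr1:173630765-173630804, plus strand): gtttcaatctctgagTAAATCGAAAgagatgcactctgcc
Ifi207 (chr1:173741826-173741865, minus strand): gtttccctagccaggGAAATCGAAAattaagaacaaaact
Ifi211 (chr1:173913059-173913098, minus strand): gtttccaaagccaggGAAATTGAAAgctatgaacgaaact
Ifi205 (chr1:174031865-174031904, minus strand): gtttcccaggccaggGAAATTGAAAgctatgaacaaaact

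The match began 40 bases before the start in Ifi206, 73 in Ifi213, 79 in Ifi214, 41 in Ifi207, 37 in Ifi211 and 134 in Ifi205. Ifi203, with 2 windows, held it in the one nearer the gene, beginning 35 bases before that start, and its 40 bases around the match were identical to those of the neighbouring PYHIN gene Mndal. Over the 250 bases, Ifi214 and Ifi209 had 94.4% identity in a global alignment, Ifi206 and Ifi213 75.6%, and Ifi207 and Ifi211 85.0%. Ifi204 had no window and is named only. A match is a description of the reference letters, and binding was not measured.

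Ifi202b was the one member with a window and no stretch within 1 base of the motif on its own strand. Its 250 bases are printed to set beside those of the other members. They are letters of the reference strain, and the strain of these mice was not given. The gene had 982 to 2247 reads per library. Whether the printed bases are the promoter used in these cells was not tested. The capitals mark TTCNNNGAA, the core letters of the interferon-gamma activated site, which reads alike on both strands and was present in 7.02% of all windows. No other member's window held it, and it overlaps no match of the GAAA pair here.

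Ifi202b (chr1:173982845-173983094, minus strand): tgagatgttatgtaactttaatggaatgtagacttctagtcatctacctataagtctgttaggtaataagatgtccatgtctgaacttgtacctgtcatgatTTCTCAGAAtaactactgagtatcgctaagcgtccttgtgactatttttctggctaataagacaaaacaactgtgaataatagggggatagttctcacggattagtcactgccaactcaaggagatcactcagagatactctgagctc

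The DNA sensor Ifi204, the mouse counterpart usually set beside human IFI16 and known to signal through STING, stood at 115.6 (replicate 1), 39.3 (replicate 2) and 79.1 CPM (replicate 3) in KO and, in the same order, at 44.2, 105.3 and 47.6 CPM in WT. KO replicate 1 and WT replicate 2 were high and the genotypes overlapped. The means were 78.0 ± 38.2 CPM (SD, n = 3) in KO and 65.7 ± 34.4 CPM (SD, n = 3) in WT, so that KO was 0.23 higher on the log2 scale (95% interval -0.76 to 1.22, limma with Benjamini-Hochberg adjustment, adjusted p = 0.919). Genotype accounted for 3.53% of the sum of squares of Ifi204 over the 6 libraries.

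Ifi202b encodes a protein with HIN domains and no pyrin domain, known as an antagonist of AIM2. It had 82.2, 31.5 and 57.9 CPM in KO and 36.5, 79.5 and 37.0 CPM in WT. The same 2 libraries were high, and KO replicate 2 was lowest. The log2 fold change was 0.16 (95% interval -0.73 to 1.05, limma adjusted p = 0.938). The gene is clearly expressed in each library, with 982 to 2247 reads. None of its 50-base transcript stretches recurs in the reference transcripts of another gene. Neither read length nor strain was given, so the assignment of each read was not settled.

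Ifi207 was the most abundant member, at 340.9, 204.3 and 271.8 CPM in KO and 224.2, 309.9 and 232.3 CPM in WT. It kept the shared order of libraries but moved the least, 1.67-fold between KO replicates 1 and 2 (counting interval 1.61 to 1.72) and 1.38-fold between WT replicates 2 and 1. Its genotype difference was 0.08 (95% interval -0.36 to 0.52, limma adjusted p = 0.938). Ifi203, a nuclear member, had 126.4, 56.5 and 95.02 CPM in KO and 68.3, 129.7 and 73.1 CPM in WT. It was the only one of the 10 in which WT replicate 2 and not KO replicate 1 was highest, and its genotype difference was the smallest of the 9 tested, at 0.02 (95% interval -0.71 to 0.76).

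Ifi209, one of the less studied members, had 42.0, 5.98 and 20.4 CPM in KO and 7.78, 41.8 and 9.65 CPM in WT. KO replicate 1 was 7.03-fold above KO replicate 2 (counting interval 6.01 to 8.26), and WT replicate 2 was 5.38-fold above WT replicate 1. The genotype means, 22.8 ± 18.1 and 19.8 ± 19.2 CPM (SD, n = 3 each), differed by less than the SD of either genotype. The log2 fold change was 0.23 (95% interval -1.50 to 1.96, limma adjusted p = 0.951), and genotype accounted for 1.16% of the sum of squares. Of its 50-base transcript stretches 33.4% recur in Ifi214, so reads of this pair may be split between them.

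Ifi211 and Ifi205 have closely related transcripts. Ifi211 had 16.7, 5.17 and 9.62 CPM in KO and 5.67, 14.9 and 6.35 CPM in WT. Ifi205 had 2.96, 0.964 and 1.54 CPM in KO and 0.736, 2.44 and 1.39 CPM in WT. In both, KO replicate 1 and WT replicate 2 were high, and the genotypes overlapped. Of the 50-base stretches of Ifi211, 72.8% recur in transcripts of other genes (44.7% in Ifi205 and 30.1% in Ifi204), so its count is uncertain. For Ifi205 this share was 18.6%.

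Ifi206, Ifi214 and Ifi213 were scarce in 3 libraries and higher in the others, though Ifi213 had only 0.925 CPM in KO replicate 3. Ifi206 had 9.24, 0.450 and 2.71 CPM in KO and 0.384, 8.70 and 0.804 CPM in WT. Ifi214 had 3.84, 0.418 and 1.91 CPM in KO and 0.320, 3.57 and 0.804 CPM in WT. These 2 genes passed the filter through KO replicates 1 and 3 and WT replicate 2, thus through both genotypes. Their log2 fold changes were 0.40 (95% interval -1.58 to 2.37) and 0.29 (-0.95 to 1.54), the highest of the 9. Ifi206 was 20.5-fold higher in KO replicate 1 than in KO replicate 2 (counting interval 11.995 to 38.2, from 231 and 14 reads), and 22.7-fold higher in WT replicate 2 than in WT replicate 1 (12.7 to 44.4, from 246 and 12 reads).

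Ifi213 reached 1 CPM in 2 libraries only. Its reads numbered 85, 1 and 30 in KO and 2, 94 and 7 in WT, by replicate number. The ratio of KO replicate 1 to KO replicate 2 was 105.8 with a counting interval from 18.5 to 4228, and that of WT replicate 2 to WT replicate 1 was 51.9 with an interval from 13.98 to 435.1. These intervals are exact (Clopper-Pearson) and cover counting error only. With no filter its log2 fold change between genotypes was 0.22 (limma adjusted p = 0.959). Of the 50-base stretches of Ifi206, 25.6% recur elsewhere, mostly in Ifi208 and Ifi213, and of those of Ifi213 15.6%.

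**Figure D1:**
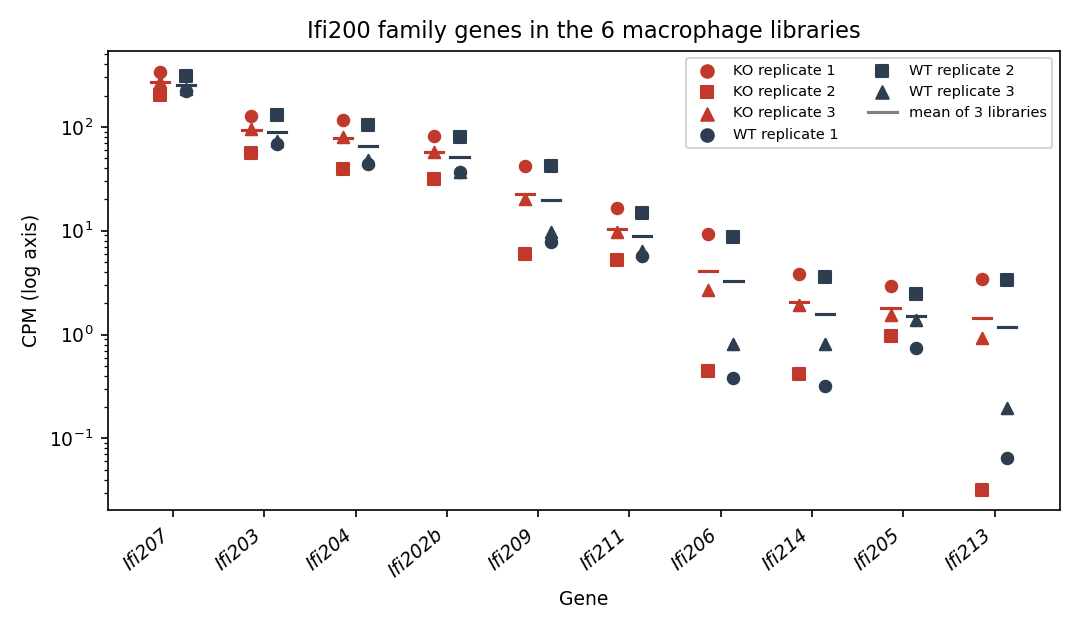
CPM on a log axis (vertical) of each of the 10 Ifi200 genes (horizontal, ordered by mean level), with 1 point per library and a short line at the mean of the 3 libraries of a genotype. KO replicate 1 and WT replicate 2 are the highest points of each gene, and the genotypes overlap in all 10.

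Per kilobase of annotated exon the members spanned a wide range of levels. Ifi207 led at 77.1 ± 15.6 CPM per kb (SD over 6 libraries), and its lowest library, at 59.7, lay above the highest of Ifi202b, at 48.5. Ifi202b followed at 31.9 ± 13.3, Ifi204 at 20.2 ± 9.31 and Ifi203 at 13.6 ± 4.61 CPM per kb. These 3 overlapped over libraries but kept this order within each of the 6. Ifi209 (5.999 ± 4.72 CPM per kb) and Ifi211 (5.45 ± 2.78) could not be ordered, since each was above the other in 3 libraries. The lowest were Ifi206 (1.22 ± 1.36), Ifi205 (0.400 ± 0.207), Ifi214 (0.223 ± 0.194) and Ifi213 (0.193 ± 0.236 CPM per kb). Ifi206 and Ifi205 also changed places in 3 of 6 libraries, and Ifi214 was above Ifi213 in 4.

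Knockout of Ube3a was compared with wild type over all 12118 tested genes with limma. Values entered it as log2(CPM + 1), on which changes of scarce genes come out too small. At a Benjamini-Hochberg adjusted p under 0.05, 0.0165% of all tested genes were called (2 of 12118), and 0 of the 9 tested members. The lowest limma adjusted p among the members was 0.919, and 0 had an unadjusted p under 0.05, against 4.13% of all tested genes. limma-voom on the recovered reads also called 0 members. The 9 log2 fold changes were positive, from 0.02 to 0.40 with a median of 0.19, beside a median of 0.00 over all tested genes (0.001457). The groups overlapped in 10 of 10 members, where 9.95% of tested genes had no overlap. The intervals were wide, and most allow a change of over 1.5-fold in either direction: the median standard error of the members was 0.427 on the log2 scale, against 0.0965 over all tested genes.

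The direction depended on single libraries. Without KO replicate 1 the 7 members still tested had a median log2 fold change of -0.15 and 0 positive values. Without WT replicate 1 the median was -0.08, with 1 of 9 positive, and without WT replicate 3 it was 0.03. Without KO replicate 2 or WT replicate 2 it was 0.58 and 0.52. In none of the 6 fits that each left out 1 library was a member called.

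Summed over the 10 genes, the Ifi200 level by replicate number was 743.1, 344.7 and 540.9 CPM in KO and 388.2, 699.1 and 409.1 CPM in WT. The means were 542.9 ± 199.2 and 498.8 ± 173.8 CPM (SD, n = 3 each). The means differed by less than the SD of either genotype. From the highest to the lowest library the tested members spanned 0.74 to 2.89 on the log2(CPM + 1) scale, with a median of 1.52, against a median of 0.32 over all tested genes. KO replicate 1 and WT replicate 2 were the top pair in 9 of the 9 tested members and in 12.8% of all tested genes. In bulk RNA, fewer cells with a transcript and less transcript per cell cannot be told apart.

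Antiviral interferon-stimulated genes were mostly high in the same libraries as the Ifi200 genes: KO replicate 1 and WT replicate 2 were the top pair in 29 of 30. The exception was Cxcl10, a chemokine, with 4.84, 4.59 and 6.38 CPM in KO and 7.68, 6.40 and 6.93 CPM in WT, by replicate number. On the log2(CPM + 1) scale, relative to each gene's mean over the 6 libraries, the Ifi200 members averaged 0.87, -0.74 and 0.16 in KO and -0.65, 0.78 and -0.43 in WT, by replicate number. The antiviral list, 30 of 30 genes tested, averaged 0.79, -0.65 and 0.13 in KO and -0.59, 0.67 and -0.34 in WT. It had 0 genes called and 27 of 30 positive, and the middle log2 fold change was 0.15. Cxcl10 (-0.36) and Ifi27l2a (0.56) had the lowest unadjusted p in it, and limma adjusted p = 0.866 for both.

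The interferon-induced GTPases of the GBP and IRG families, which attack membranes around pathogens, followed with 0.61, -0.44 and 0.15 in KO and -0.50, 0.50 and -0.32 in WT. Of 11 tested, 0 were called and 11 were positive, with a median of 0.23. Ifi47 had a log2 fold change of 0.29 and Gbp2 one of 0.27.

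**Figure D2:**
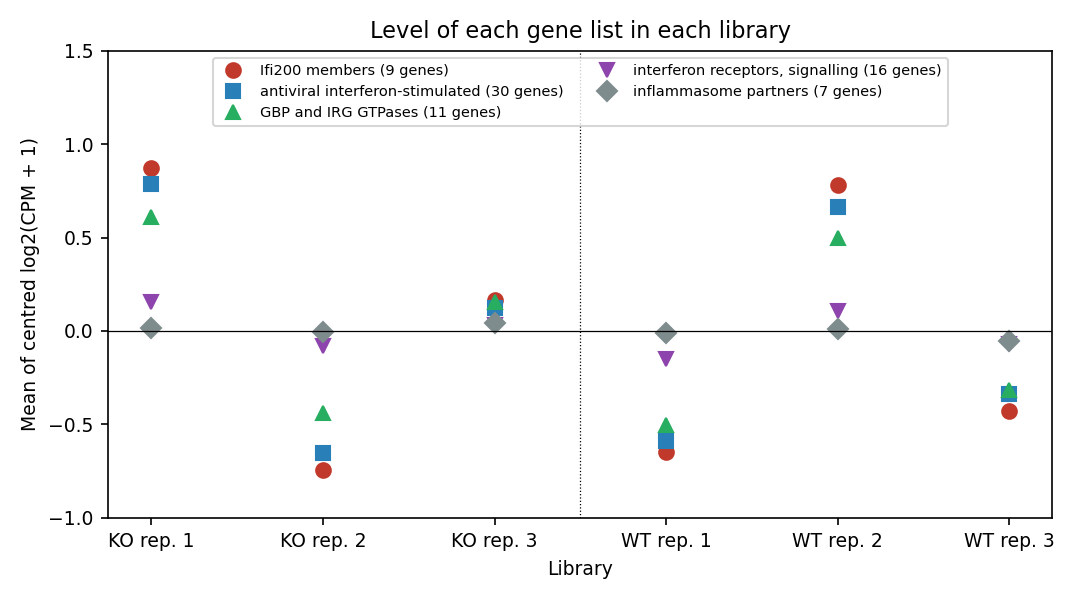
Mean level of 5 gene lists (vertical, mean over genes of log2(CPM + 1) relative to each gene's mean over all libraries) in each library (horizontal). The Ifi200, antiviral and GBP and IRG points are high in KO replicate 1 and WT replicate 2 and low in KO replicate 2 and WT replicate 1, while the inflammasome points stay between -0.05 and 0.04.

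Receptors and signal carriers of the interferon pathway moved less. The list of interferon receptors and signalling averaged 0.16, -0.08 and 0.03 in KO and -0.15, 0.11 and -0.07 in WT, with 0 of 16 tested genes called and a median log2 fold change of 0.06. Stat2, a transcription factor of the pathway, had a log2 fold change of 0.25, and its partner Irf9 one of 0.08. Tyk2 and Irf8 had the lowest unadjusted p of the list (limma adjusted p = 0.866 for both), with values of 0.14 and 0.17.

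The DNA sensing pathway was mixed. KO replicate 1 and WT replicate 2 were the top pair in 4 of its 18 tested genes, against 12.8% of all tested genes. Irf7, an inducible factor that drives interferon genes, had 352.4, 31.3 and 99.89 CPM in KO and 28.9, 239.2 and 47.7 CPM in WT. KO replicate 1 and WT replicate 2 were again high. The enzyme Cgas, which makes the second messenger of cytosolic DNA, moved less, from 35.2 to 51.3 CPM. It too was lowest in KO replicate 2 and highest in WT replicate 2 (51.3 CPM) and KO replicate 1 (51.2 CPM). Irf3, the latent factor of the pathway, ranged from 34.5 to 42.0 CPM and was lowest in KO replicate 1. Tmem173, which encodes STING, had 72.8, 80.2 and 78.8 CPM in KO and 57.7, 69.6 and 68.7 CPM in WT, with no overlap. Its log2 fold change of 0.24 was not called (limma adjusted p = 0.866), nor was that of Prkdc, at -0.18. Of 18 tested genes in this list 0 were called, with a median of 0.03. The genotypes did not overlap in 3 of the 18, against 9.95% of all tested genes. Besides Tmem173 these were Prkdc and Tbk1, both lower in KO.

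Inflammasome partners of the PYHIN proteins were nearly level. The list averaged between -0.05 and 0.04 in each library, with 0 of 7 tested genes called and a median log2 fold change of 0.01. Pycard, the adaptor ASC that pyrin domains bind, had a value of 0.09, the protease Casp1 one of 0.03 and Casp4 one of 0.14.

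The other PYHIN genes of the cluster did not all move alike. Mndal had 98.0, 45.7 and 78.5 CPM in KO and 61.2, 85.2 and 64.2 CPM in WT, in the order of the Ifi200 members. Ifi208, which did not pass the filter, had 85, 4 and 26 reads in KO and 11, 100 and 12 in WT. The pseudogene Ifi203-ps, added after its values were seen, went from 2.96 CPM in KO replicate 2 to 8.48 CPM in KO replicate 1. Aim2, the sensor of the DNA inflammasome, stayed between 39.6 and 46.2 CPM. Its span over the libraries was 0.22 on the log2(CPM + 1) scale, below that of each of the 10 members. The 250-base promoter window of Aim2 held no match of the GAAA pair. Those of Ifi202b and Ifi209 held none either, and these genes spanned 1.35 and 2.62. The windows are those of the reference strain, and the strain of these mice was not given. Whether the motif bears on the span was not tested. The genotype difference was -0.04 for Aim2 and 0.02 for Mndal (limma adjusted p = 0.919 and 0.983). Of the 50-base transcript stretches of Mndal 19.6% recur in other genes, of Ifi208 20.9%, of Ifi203-ps 26.3% and of Aim2 0.742%. Reads of Mndal, Ifi208 and Ifi203-ps may therefore be split with those of members.

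The members lie within 563.3 kb of chromosome 1, from 173468485 to 174031810 (GENCODE M21 on GRCm38). Mndal spans Ifi211 and overlaps Ifi203 on the same strand, and shares 37 exonic bases with Ifi203. Within 2 Mb of the cluster 29 other genes were tested and 0 were called. Their median span over the libraries was 0.38 on the log2(CPM + 1) scale, from 0.12 to 1.40, and KO replicate 1 and WT replicate 2 were the top pair in 8 of 29. Chml (-0.28) and Exo1 (-0.15) had the lowest unadjusted p, with limma adjusted p = 0.866 for both.

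**Figure D3:**
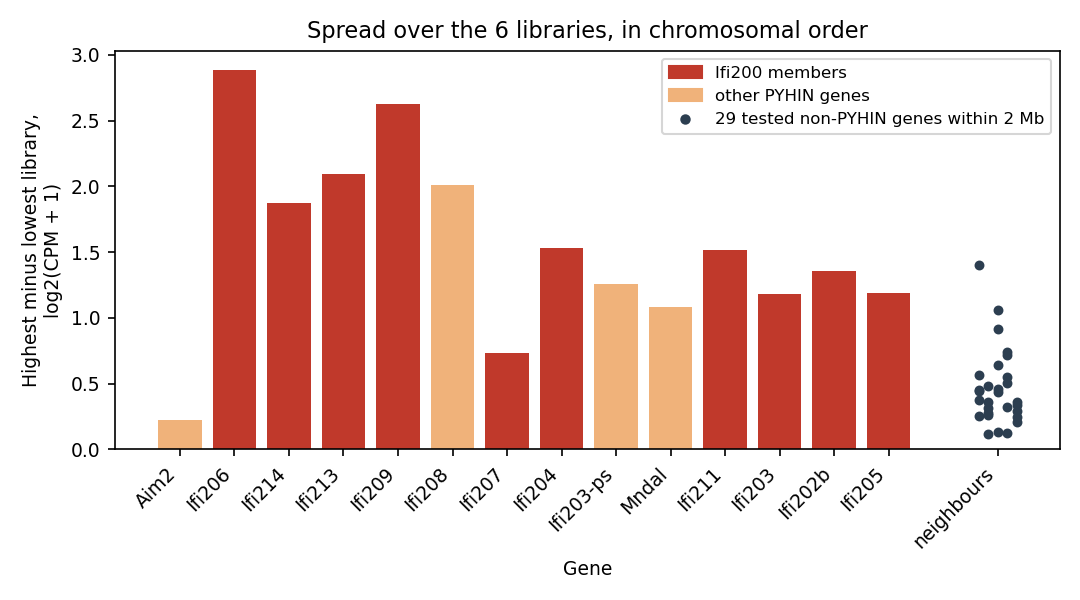
Highest minus lowest library on the log2(CPM + 1) scale (vertical) for the PYHIN genes in chromosomal order and for 29 neighbouring genes (horizontal). Bars of the Ifi200 members run from 0.74 for Ifi207 to 2.89 for Ifi206, and Aim2 stands at 0.22.

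Members were left out of the ranking that follows. The other tested genes most like the mean library profile of the 9 tested members lay outside the cluster. Likeness was the root-mean-square difference between centred log2(CPM + 1) profiles over the 6 libraries. It was smallest for Cmpk2, a mitochondrial nucleotide kinase on chromosome 12, at 0.0338, followed by the GTPase Tgtp2 at 0.0640 and Trim30d at 0.0709. Slfn5 (0.0992), Mx2 (0.108), Ddx60 (0.119), Ifit3b (0.120), Xaf1 (0.125), Oas3 (0.128) and Phf11d (0.134) completed the 10 nearest named genes, with 1 predicted gene model passed over. Among the members themselves the difference ran from 0.0634 for Ifi211 to 0.570 for Ifi206.

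With the mean level of the antiviral list held as a covariate in the fit, the members' median log2 fold change went from 0.19 to 0.01, though that of Ifi203 grew in size, from 0.02 to -0.11. Values ran from -0.11 to 0.07 for Ifi214, with 5 of 9 positive and 0 called (lowest limma adjusted p = 0.736). The median standard error of the members fell to 0.0939 from 0.427, and was smaller for 9 of 9 members and 54.5% of all tested genes. For Ifi204 the 95% interval became -0.13 to 0.22. The list, like the members, holds genes raised by interferon, and it was chosen with earlier results known. The smaller errors are therefore no independent support. A genotype effect shared by the list and the members would also be removed by this fit.

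**Figure D4:**
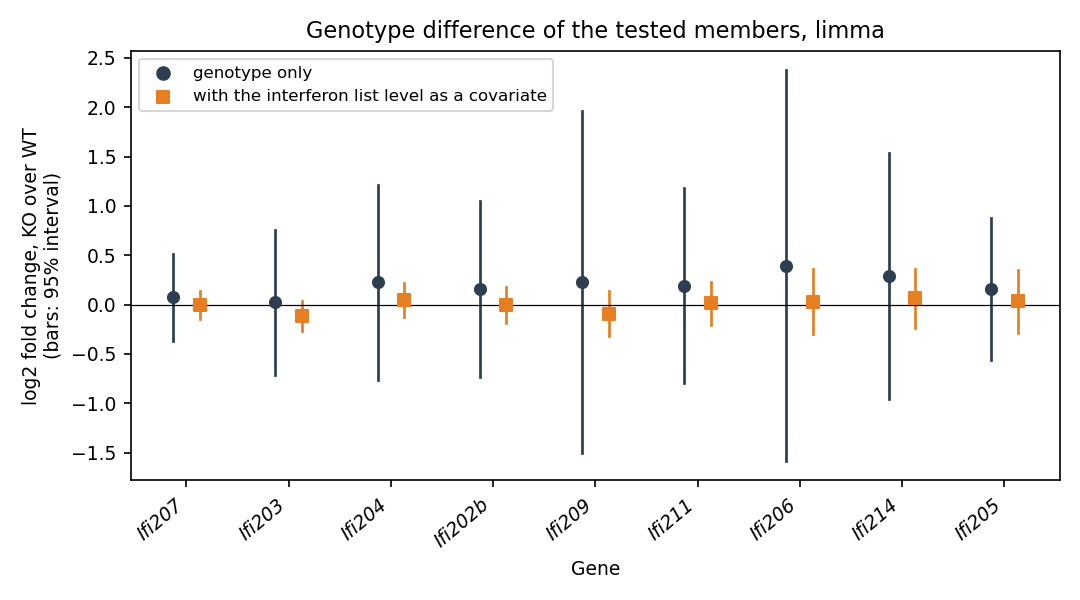
log2 fold change of KO over WT (vertical, bars give the 95% interval) for the 9 tested members (horizontal), from limma with genotype only and with the antiviral list level as a covariate. All 18 intervals include 0, and those with the covariate are the narrower of each pair.

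The genotype difference was opposite in the libraries with and without Xist. In the 4 libraries with Xist, KO was above WT by 0.41 for Ifi207 to 1.96 for Ifi206 on the log2(CPM + 1) scale, and between the 2 with almost none KO was below WT by the log2 differences -0.60 for Ifi207 and -2.74 for Ifi206. For Ifi204 the values were 1.04 and -1.40. An interaction term, chosen after these values were seen, was called for 8 of the 9 tested members and for 1.86% of all tested genes (225 of 12118). Ifi205 was not called (limma adjusted p = 0.142). Without WT replicate 1 or WT replicate 3 it was called for 0 members and 0 genes. The libraries without Xist number 1 per genotype, so their difference has no replicate check and cannot be told apart from any other difference between those libraries.

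In the fit without both replicate 2 libraries, which left 2 against 2, the 7 members still tested had log2 fold changes from 0.41 to 1.65 and a median of 0.89. The lowest limma adjusted p was 0.0524, for Ifi204, and 0 members were called. In that fit 7 of 7 had an unadjusted p under 0.05, as had 11.3% of its 11891 tested genes.

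Markers of other cells also moved over the libraries. Of 12 neutrophil markers 10 had a row, with a summed level of 8.32 to 21.3 CPM in KO and 10.5 to 32.9 CPM in WT, lowest in KO replicate 1 and WT replicate 2. Of 10 stem and progenitor markers 9 had a row, with 35.6 to 46.1 CPM in KO and 38.3 to 89.3 CPM in WT. Most of it was Cd34, at 25.8, 24.5 and 34.0 CPM in KO and 77.3, 28.9 and 74.1 CPM in WT. Cd34 was not called, at -0.96 on the log2 scale (limma adjusted p = 0.866). Of 9 conventional dendritic cell markers 6 had a row, at 52.1 to 93.0 CPM in KO and 43.5 to 147 CPM in WT. Nearly all of it came from Itgax, which macrophages also express. Itgax was highest in WT replicate 2 and KO replicate 1, with 90.5, 58.5 and 48.6 CPM in KO and 40.9, 145.8 and 41.6 CPM in WT. Irf4 averaged 1.55 CPM in KO and 1.13 CPM in WT, and Batf3 0.627 and 0.582 CPM. Zbtb46, Xcr1 and Flt3 each averaged under 0.3 CPM in each genotype. Of 8 plasmacytoid dendritic cell markers 4 had a row, at 367.8 to 483.4 CPM in KO and 301.3 to 458.2 CPM in WT, from Irf8 (133.9 to 178.1 CPM), Bst2 (76.0 to 225.8 CPM), Tcf4 (87.6 to 97.7 CPM) and Spib (under 0.1 CPM on average in each genotype). Bst2 and Irf8 are also in the antiviral and interferon signalling lists. B cell markers (2 of 7 with a row), T and NK cell markers (1 of 9) and stromal markers (4 of 8) summed to at most 4.38, 0.460 and 2.25 CPM. The part of other cells in the Ifi200 pattern was not tested.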

How the data were processed

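An mRNA kit was used on total RNA to make 6 libraries, 3 KO and 3 WT, grouped by title. The tools listed in the submitters' processing notes are Cufflinks, FastQC 0.11.15, HTSeq 0.11.0, Trimmomatic 0.36 and HISAT2 2.1.0. Their roles, the build, read length and strand setting were not given in the sources used here. In the table, the authors deposited 1 value per gene and library, which per the file headers is CPM and from its range (-3.94 to 14.4) is log2 CPM with a prior count. The decimal mark of values of size 1 or more was lost on saving. It was restored from the step that 1 read is worth in each library, and 100% of values then gave whole reads (within 1e-06 of a read). Both steps were tested on simulated data. CPM was the recovered reads times that step. Genes with at least 1 CPM in 3 libraries were fitted with limma 3.58.1 (trend) in R 4.3.3 on log2(CPM + 1), two-sided, and called at adjusted p under 0.05. The members and lists were chosen with earlier results of these data known. Members, other PYHIN genes, the 10 most alike genes, the 2 genes of lowest p per pathway list and of the neighbours, and set pathway genes are named. A gene covered by this rule is not reported here. Marker lists are given as sums, with some single markers. Positions and exon lengths come from GENCODE M21, matched by identifier for 16820 genes, and promoter sequences from RefSeq (GRCm38.p6). Alignments used Biopython 1.88. edgeR and DESeq2 were not used.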

Additional observations from a re-analysis of the deposited data

Results flagged for a closer look

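The difference between genotypes was not alike in the 4 libraries with Xist and the 2 with almost none. On the log2(CPM + 1) scale the KO minus WT difference with Xist exceeded that without by 1.01 for Ifi207, 1.81 for Ifi203, 2.20 for Ifi202b, 2.33 for Ifi211, 2.44 for Ifi204, 2.97 for Ifi214, 4.27 for Ifi209 and 4.71 for Ifi206. For Mndal it was 1.36. These 9 genes passed the interaction test (limma, adjusted p from 0.0157 to 0.0393), a split chosen after seeing these values, so that the test is no independent support for it. Without WT replicate 1 or WT replicate 3 it was called for 0 members and 0 genes. The test takes its spread from the 4 libraries with Xist and assumes that the single libraries of replicate 2 vary alike.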

How the results depend on the processing

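Members called between genotypes stayed at 0 of those tested in 17 alternative fits. The count over all genes, 2, was 1 with a pseudocount of 4, with no filter, with at least 5 CPM in 3 libraries and with limma-voom, 4 with the antiviral list as a covariate, 23 with the pair of libraries of replicate 2 left out, and 1 to 8 with 1 library left out. The median log2 fold change of the members ran from -0.15 to 0.58 with 1 library left out. Nothing in the labels pairs the libraries by replicate number, and same-numbered deviations correlated at -0.216, -0.134 and 0.14. With so few libraries these values cannot exclude a pairing, and the libraries of replicate 2 share the near absence of Xist. With the replicate block the count over all genes was 2, members called were 0 and their median was 0.19; for the Xist interaction the block gave 460 genes and 8 members.

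With the antiviral list as a covariate the log2 fold change changed sign for Ifi202b (-0.0035), Ifi203 (-0.11), Ifi207 (-0.0018), Ifi209 (-0.092) and Mndal (-0.076). Without both replicate 2 libraries it did so for Aim2 (0.045), Ifi203-ps (0.43), Cgas (0.12) and Irf3 (-0.075). With 1 library left out the range was -0.15 to 0.53 for Ifi202b, -0.24 to 0.34 for Ifi203, -0.12 to 0.65 for Ifi204, -0.12 to 0.41 for Ifi205, -0.14 to 1.09 for Ifi206, -0.10 to 0.27 for Ifi207, -0.38 to 0.94 for Ifi209, -0.18 to 0.59 for Ifi211, -0.082 to 0.76 for Ifi214, -0.21 to 0.33 for Mndal, -0.098 to 0.012 for Aim2, -0.33 to 0.30 for Ifi203-ps, -0.30 to 1.46 for Irf7, -0.031 to 0.22 for Irf9, -0.21 to 0.049 for Cgas, -0.055 to 0.083 for Irf3 and -0.012 to 0.092 for Casp1. The cause was not tested.

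The Xist interaction, called for 225 genes and 8 members, gave 359 genes with table totals as library size, and 0 to 1126 genes and 0 to 7 members with 1 library left out (0 of each without WT replicate 1 or WT replicate 3, where an arm holds 1 sample that is assumed to vary like the others). It could not be fitted without replicate 2 of either genotype. Depth limits Ifi213, with 1 and 2 reads in its lowest libraries.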
